A study of Vigna radiata with 18 samples.

Results

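Chromosomes 7 and 10 of mung bean (Vigna radiata) each carry a region with few peaks of open chromatin that lies away from the middle of the chromosome. The peaks described are all those of the consensus list on these 2 chromosomes, 11266 of 50238 (22.4%), with 5830 on chromosome 7 and 5436 on chromosome 10. Each chromosome was divided at its longest gap between neighbouring peaks into a long and a short side. The sides were chosen by the peak positions themselves. Density, gaps and long peak-free spans on either side are therefore a description, with no test, and so are the widths, which come from the same peaks.

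The study profiled wild-type leaves of the cultivar Weilv 9 by ATAC-seq, a method that maps accessible DNA of nuclei with the transposase Tn5, which inserts sequencing adapters where it can reach. In the regime T1, seedlings stood in 100 mM NaCl for 24 h, recovered for 48 h without NaCl and were then returned to 100 mM NaCl. In the regime T2 they met 100 mM NaCl with no earlier exposure. The first true leaves, once fully expanded, were sampled at 0, 6 and 48 h into the final exposure, with 3 libraries for each regime and time, 18 in all. All 6 groups share the cultivar, the genotype and the hydroponic culture, and the tag protoplast in the labels is not explained by their protocol. The list gives each peak a chromosome, a start and an end, and no value for any library, so the regimes and times are not compared here. Coordinates are those of the list, counted from 1, on a genome build not given in the sources used here.

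In flowering plants, accessible sites gather at promoters and other regulatory DNA next to genes, whereas DNA packed with transposons and satellite repeats is mostly wrapped in closed chromatin. On many plant chromosomes genes are common on the outer arms and rare around the centromere, and a centromere that is not in the middle leaves a long and a short arm. The list does not mark centromeres, genes or repeats. A span without a peak is one for which the list holds no interval, and the read coverage in it is unknown.

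The longest gap of chromosome 7 ran for 972 kb, at 36282706 to 37254520. Its middle stood at 66.1% of the span, which was taken from the first base to the end of the last peak, 55.6 Mb. The longest gap of chromosome 10 ran for 931 kb, at 18909911 to 19840994, with its middle at 36.5% of a span of 53.1 Mb. Measured from the nearer end, the gaps thus lay at 33.9% on chromosome 7 and 36.5% on chromosome 10. The other 9 chromosomes ranged from 6.12% to 49.5%, with a median of 46.4%. A place off the middle was not found on these 2 chromosomes alone, since the gap of chromosome 5 lay 34.0% from the nearer end and that of chromosome 11 lay 6.12% from it. In length the 2 gaps ranked 4th and 5th of 11. As shares of the span they were alike, 1.75% on both chromosomes.

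The peaks at the edges of the gap differed between the 2 chromosomes. On chromosome 7 the gap lay between single narrow peaks, one of 138 bp (36282568 to 36282705) and one of 195 bp (37254521 to 37254715). The first had no other peak for 112 kb on its outer side, and the second had none for 299 kb. Without the narrowest 25% of the list, those under 201 bp, both fell away and the longest gap widened to 1386 kb (36170378 to 37556511). The gap of chromosome 10 was bounded by peaks above the upper quartile of width on that chromosome (449 bp), one of 511 bp (18909400 to 18909910) and one of 1123 bp (19840995 to 19842117). Their next neighbours were 7.92 kb and 16.7 kb away, and the gap kept its bounds when the narrowest peaks were dropped.

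On both chromosomes the long side held more peaks per Mb than the short side. On chromosome 7 the long side, which precedes the gap, had 4205 peaks in 36.3 Mb, or 115.9 per Mb, and the short side had 1625 in 18.4 Mb, or 88.4 per Mb. The long side thus held 72.1% of the peaks of both sides (95% exact Clopper-Pearson interval 71.0% to 73.3%) on 66.4% of their length, a density ratio of 1.31. The long side of chromosome 10, which follows the gap, had 3651 peaks in 33.3 Mb, or 109.8 per Mb, and the short side had 1785 in 18.9 Mb, or 94.4 per Mb. It held 67.2% of the peaks (65.9% to 68.4%) on 63.8% of the length, a ratio of 1.16. The intervals cover counting error only and treat peaks as independent, which clustered peaks are not, so they are too narrow. They also take the split as given, though it was chosen from the same peak positions.

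**Figure D1:**
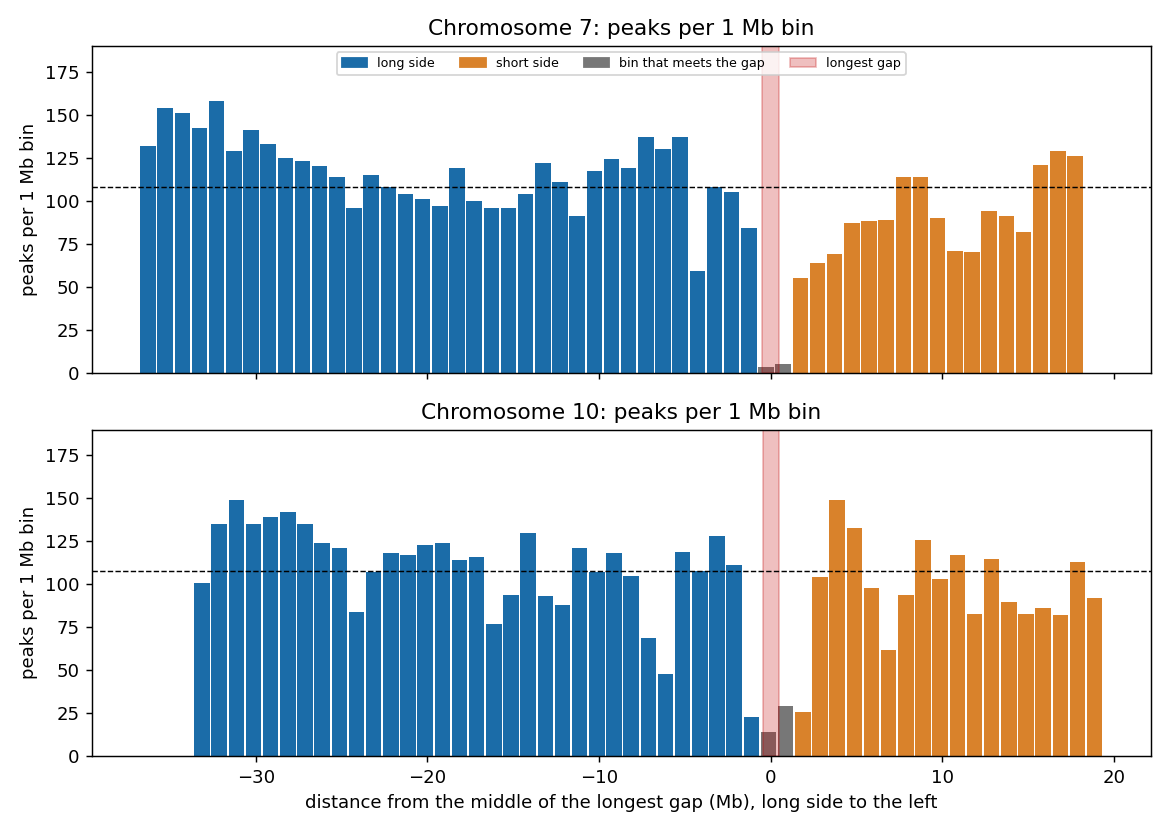
Peaks per whole 1 Mb bin (vertical axis) against the distance of the bin from the middle of the longest gap in Mb (horizontal axis), drawn with the long side to the left, for chromosome 7 (top) and chromosome 10 (bottom); the dashed line is the median bin of the chromosome, 108 peaks on both. Bins that meet the gap hold 3 and 5 peaks on chromosome 7 and 29 and 14 on chromosome 10, and the tallest bins of chromosome 7 stand far out on its long side.

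Bins of 1 Mb showed the same order. Whole bins of the long side of chromosome 7 had a median of 118 peaks (quartiles 103 and 131, 36 bins) and those of its short side a median of 89 (71 and 114, 17 bins). The medians of chromosome 10 were 117 on the long side (101 and 124, 33 bins) and 96 on the short side (83.8 and 114.5, 18 bins). The densest bin of the long side of chromosome 7 held 158 peaks (4000001 to 5000000) and the densest of its short side 129 (53000001 to 54000000). Chromosome 10 had a densest bin of 149 peaks on either side, at 50000001 to 51000000 on the long side and at 15000001 to 16000000 on the short side. The bin of the short side ended 2.91 Mb before the gap, so the peak-richest Mb of that side was close to the sparse region and not at the chromosome end.

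Outside the bins that meet the gap, the sparsest bins were also near it. On chromosome 10 they were 20000001 to 21000000 on the long side, with 23 peaks, and 17000001 to 18000000 on the short side, with 26. On chromosome 7 the sparsest bin of the short side held 55 peaks (38000001 to 39000000). That of the long side held 59 and lay farther out, at 32000001 to 33000000.

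The density around the gap had a different shape on each chromosome. The short side of chromosome 7 was the sparser in all 5 classes of distance, the last of which pools everything beyond 8 Mb. In the first 1 Mb from the edge of the gap the long side had 61 peaks and the short side had 13, and from 1 to 2 Mb the counts were 108 and 72. The long side had 84.5 peaks per Mb and the short side 63.0 at 2 to 4 Mb, with 126.5 against 96.5 at 4 to 8 Mb and 118.8 against 99.0 beyond 8 Mb. In stretches of 6 Mb the order did not hold throughout, since at 12 to 18 Mb from the gap the long side had 105.7 peaks per Mb and the short side 107.8. On chromosome 10 both sides were sparse at first, with 23 peaks on the long side and 34 on the short side in the first 1 Mb. From 1 to 2 Mb the long side had already reached 101 peaks while the short side held 23. At 2 to 4 Mb the order turned, with 123 per Mb on the long side and 133.5 on the short side, and at 4 to 8 Mb the values were 84.8 and 95.3. Beyond 8 Mb the long side was again the denser, with 116.5 per Mb against 99.0.

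**Figure D2:**
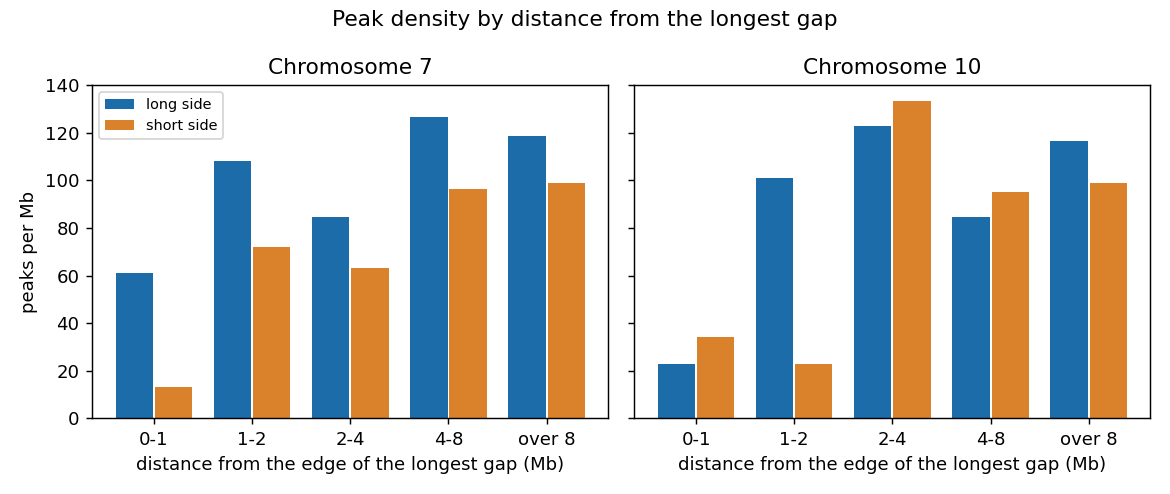
Peaks per Mb (vertical axis) in 5 classes of distance from the edge of the longest gap (horizontal axis, Mb), with the long side in blue left of the short side in orange, for chromosome 7 (left) and chromosome 10 (right). The long side is the taller bar in all 5 classes on chromosome 7 and in 2 of 5 on chromosome 10.

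Measured from the gap, part of the difference between the sides lay in the far reaches of the long sides, at distances that the short sides do not reach. The last 5 Mb at the end of the long side held 147.4 peaks per Mb on chromosome 7 and 131.6 on chromosome 10, against 110.2 and 91.2 in the last 5 Mb of the short sides. Once the long side was cut, from the gap outward, to the length of the short side, chromosome 7 had 107.3 per Mb on the long side and 88.4 on the short side, a ratio of 1.21. The same cut left chromosome 10 with 99.5 on the long side and 94.4 on the short side, a ratio of 1.05. Cut instead from the chromosome end inward, the long sides held 124.4 per Mb on chromosome 7 and 118.8 on chromosome 10, ratios of 1.41 and 1.26. These cuts were added after the values were seen.

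A denser long side was not shared by all chromosomes. With each split at its own longest gap, the ratio of the long over the short side was 1.31 on chromosome 7 and 1.16 on chromosome 10, and it ranged from 0.776 to 4.77 on the other 9, with 5 of 9 above 1. For sides of equal length from the gap the other 9 ranged from 0.783 to 4.27, with 4 of 9 above 1. The highest value, on chromosome 11, set 205 peaks on a stretch of 1.95 Mb against 48 on its short side. The median gap of the other 9 lay 46.4% from the nearer end, so long and short sides were often of nearly equal length there. Chromosome 5, whose gap lay 34.0% from the nearer end, had a ratio of 1.09 for whole sides and 0.945 at equal length from the gap. The difference between chromosomes 7 and 10 and the rest was not tested.

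**Figure D3:**
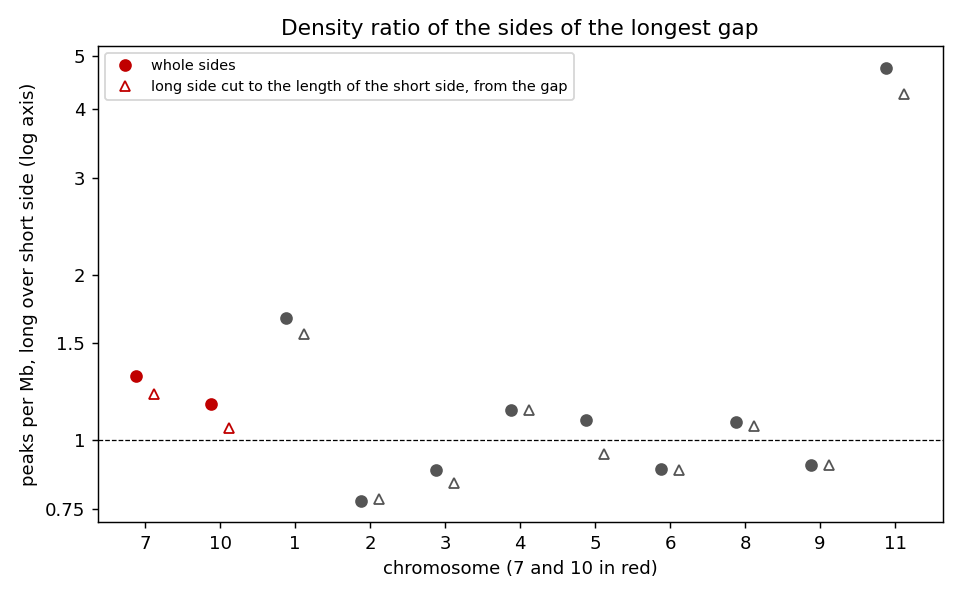
Peaks per Mb on the long side over the short side of the longest gap (vertical log axis) for each chromosome (horizontal axis), with chromosomes 7 and 10 in red and first; circles are whole sides and triangles the long side cut to the length of the short side from the gap. Chromosome 7 stands at 1.31 and 1.21 and chromosome 10 at 1.16 and 1.05, within the range of the other 9, which spans 0.776 to 4.77 for whole sides.

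Spans of 100 kb or more without a peak numbered 15 on chromosome 7 and 18 on chromosome 10, the splitting gaps included, against 3 to 43 on the other 9 chromosomes (median 12). They took up 3.77 Mb of chromosome 7 (6.77% of its span) and 4.46 Mb of chromosome 10 (8.40%). The limit of 100 kb cut through a near-continuous range on chromosome 10, where the spans just above and just below it were 106.4 kb and 99.6 kb. On chromosome 7 they were 103.8 kb and 92.2 kb.

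Apart from the gap itself, chromosome 7 had 5 such spans on the long side and 9 on the short side, or 1.38 and 4.90 per 10 Mb. They took 2.61% of the long side and 10.1% of the short side. All 5 of the long side were centred within 4.30 Mb of the middle of the gap. Closest to it came spans of 112 kb (36170378 to 36282567) and 296 kb (35872949 to 36168648), then one of 172 kb (35303215 to 35475691). The remaining pair, of 261 kb (32561728 to 32822760) and 104 kb (32419673 to 32523463), made the sparse bin at 32 Mb. From the first base to 32419672, which is 32.4 Mb and 58.3% of the chromosome, no span reached 100 kb. The longest gap there was 87.0 kb, and the density was 119.6 peaks per Mb.

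The short side of chromosome 7 had its spans in separate groups. Next to the gap followed spans of 299 kb (37254716 to 37553907), 418 kb (37591760 to 38009753) and 136 kb (38041414 to 38177667), with few peaks between them. Farther out came 145 kb (39683993 to 39829469) and 135 kb (40397995 to 40532840). A single span of 247 kb (46465990 to 46713447) lay about 10 Mb from the gap. Its 1 Mb bin held 90 peaks, against a median of 89 on the short side. Beyond that span came a row of 126 kb (47848342 to 47974049), 211 kb (48025663 to 48236679) and 134.5 kb (48259996 to 48394495). The spans of that row totalled 471 kb. They lay in the bins 47000001 to 48000000 and 48000001 to 49000000, which held 71 and 70 peaks.

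The spans of chromosome 10 were shared more evenly, 9 on the long side and 8 on the short side, or 2.71 and 4.23 per 10 Mb. They took 5.41% of the long side and 9.13% of the short side. This order turned with the long side cut to equal length from the gap, which gave 9 spans on the long side and 8 on the short side, or 4.76 and 4.23 per 10 Mb. It turned also with the split at the second-longest gap, which gave 13 and 4, or 3.68 and 2.33 per 10 Mb. The second-longest span of the chromosome, 629 kb (17187396 to 17816406), stood on the short side with its middle 1.87 Mb from that of the gap. Between it and the gap lay spans of 207 kb (18308194 to 18515689) and 213 kb (18515854 to 18728543). On the long side the gap was followed by spans of 267 kb (19949954 to 20216480) and 240 kb (20216668 to 20456297). A second sparse stretch on the long side, about 6 to 7 Mb from the gap, held 5 spans with a total of 934 kb, among them one of 397 kb (25376317 to 25773013). A span of 203 kb (31317309 to 31520494) was the last on that side. The other 10 spans of chromosome 10 measured 106.4 to 200.2 kb, and 4 of them were scattered singly over the short side beyond the sparse region. From 31520495 to the last peak, 21.6 Mb, no span reached 100 kb and the density was 117.9 peaks per Mb.

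**Figure D4:**
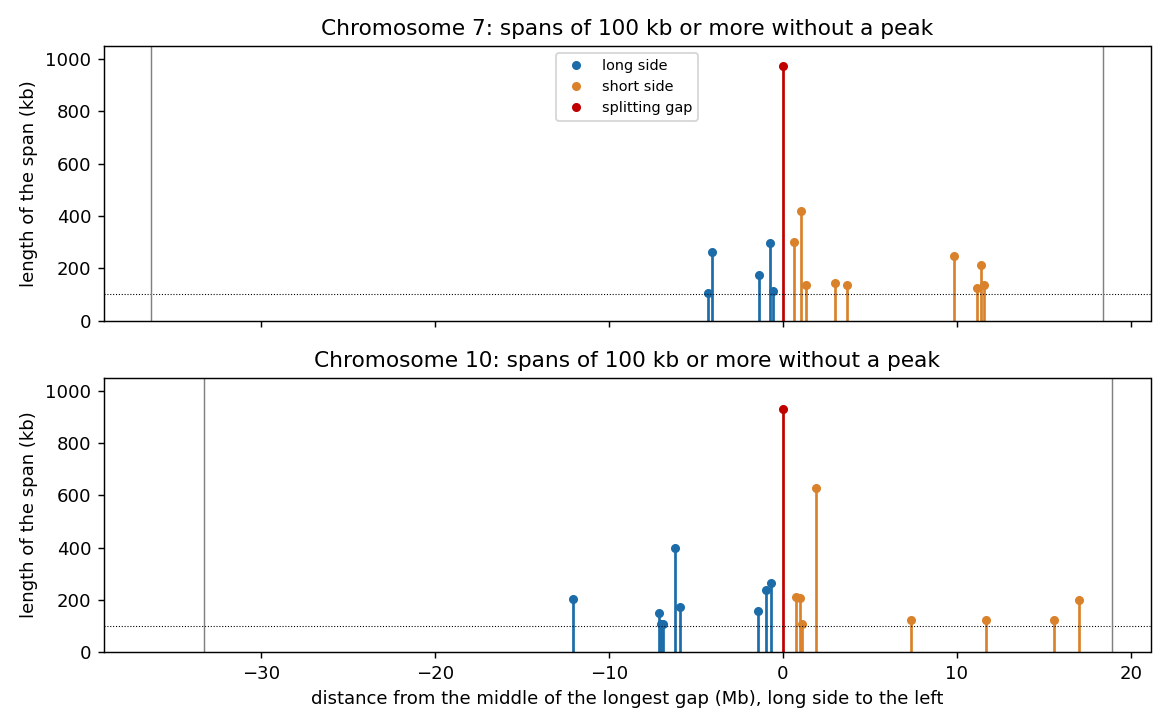
Length in kb (vertical axis) of every span of 100 kb or more without a peak, against its distance from the middle of the longest gap in Mb (horizontal axis), long side to the left, for chromosome 7 (top) and chromosome 10 (bottom); red marks the splitting gap, and grey lines mark the ends of the span. Spans gather around the gap on both chromosomes, and second groups appear about 11 Mb out on the short side of chromosome 7 and about 7 Mb out on the long side of chromosome 10.

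With these spans taken out of the length, the long side of chromosome 7 had 119.0 peaks per Mb and its short side 98.3, a ratio of 1.21. For chromosome 10 the values were 116.0 on the long side and 103.9 on the short side, a ratio of 1.12. The long side therefore stayed the denser on both chromosomes when only the ground between long spans was counted. In windows of 100 kb, 1.10% of those of the long side of chromosome 7 and 4.37% of those of its short side held no peak. On chromosome 10 these shares were 3.01% on the long side and 5.29% on the short side. The median window held 12 peaks on the long side and 9 on the short side of chromosome 7, and 11 and 10 on those of chromosome 10.

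The sparse region around the gap was taken as the gap plus adjoining 1 Mb windows that hold under 54 peaks, which is 50% of the median bin of either chromosome. By this rule it reached over 1.97 Mb on chromosome 7 (36282706 to 38254520) and included no window of the long side, whose first window held 61 peaks. On chromosome 10 it reached over 3.93 Mb (16909911 to 20840994), with 2 windows on the short side and 1 on the long side. On chromosome 7 the sparse region held 13 peaks, or 6.59 per Mb, against 108.4 per Mb on the rest of the chromosome. On chromosome 10 it held 80 peaks, or 20.4 per Mb, against 108.9 per Mb on the rest. Spans of 100 kb or more filled 92.6% of the region on chromosome 7 and 70.0% on chromosome 10. In the ground left between them the density was 88.7 peaks per Mb on chromosome 7 and 67.8 on chromosome 10. The same ground of the rest of each chromosome had 112.5 and 112.8 per Mb. Within the sparse regions that ground is bounded mostly by peaks at the edges of spans, which raises its density. On chromosome 7 it held only 13 peaks.

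Peaks inside the sparse regions were somewhat narrower than those outside. Their median width was 222 bp on chromosome 7 (quartiles 183 and 297, 13 peaks), against 300 bp on the rest of it (205 and 452). On chromosome 10 it was 268.5 bp (170 and 405, 80 peaks) against 294 bp (200 and 450). The quartiles overlapped on both. The widest peak of the region measured 676 bp on chromosome 7 (38025451 to 38026126) and 1144 bp on chromosome 10 (18149049 to 18150192). None of the 13 peaks on chromosome 7 reached 1000 bp, while 3 of 80 on chromosome 10 did, a share of 3.75% against 2.20% on the rest of it.

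Small groups of peaks stood between neighbouring long spans like islands. There were 17 groups of at most 20 peaks with a span of 100 kb or more on either side, 8 on chromosome 7 with 22 peaks and 9 on chromosome 10 with 45 peaks. A single peak made up 6 of them. These lone peaks were 138 to 195 bp wide, and all 6 were narrower than the lower quartile of their chromosome (205 bp on chromosome 7 and 199 bp on chromosome 10). The other 11 islands held 2 to 14 peaks over 1.73 to 243 kb, and in 8 of them the widest peak was above the upper quartile of its chromosome. The widest of several peaks passes that quartile more often than a single peak does, so this count and that of the lone peaks are not compared. The richest islands were those at the edges of the gap of chromosome 10, with 14 peaks on either side. The one of the long side covered 109 kb (19840995 to 19949953) and that of the short side 181 kb (18728544 to 18909910). On chromosome 7 the islands nearest the gap were the single peaks at its edges. After the next span came 4 peaks over 37.9 kb on the short side and 2 peaks over 1.73 kb on the long side.

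Peaks that border a span of 100 kb or more had lower median widths than the others. The lone peaks and some peaks of the sparse regions are among these bordering peaks, so the sets overlap. On chromosome 7 the 28 bordering peaks had a median width of 222 bp (quartiles 180 and 374), against 300 bp for the other 5802 (205 and 452). The 32 bordering peaks of chromosome 10 had a median of 229.5 bp (160 and 301), against 294 bp for the other 5404 (200 and 449). Of the bordering peaks, 18 of 28 on chromosome 7 and 22 of 32 on chromosome 10 were narrower than the median of the others. A long distance to the next peak did not always go with a small width. Peaks whose nearest neighbour was 20 kb or more away had median widths of 242 bp on the long side (45 peaks) and 297 bp on the short side (45 peaks) of chromosome 7. On chromosome 10 they had medians of 271 bp on the long side (42 peaks) and 269 bp on the short side (39 peaks).

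Over whole sides, peaks were slightly wider on the long side. The median was 303 bp on the long side of chromosome 7 (quartiles 205 and 457, mean 364 ± 228, SD over peaks) and 294 bp on its short side (205 and 438, mean 359 ± 242). On chromosome 10 it was 301 bp on the long side (201 and 461, mean 367 ± 230) and 281 bp on the short side (195 and 422, mean 346 ± 217). The differences of 9 and 20 bp were small beside the spread between peaks. They depended on which part of the long side was set beside the short side. With the long side cut to the length of the short side from the gap, the medians were 292 bp on the long side and 294 bp on the short side of chromosome 7, so that the order turned. The same cut on chromosome 10 left 286 bp on the long side and 281 bp on the short side. Cut from the chromosome end instead, the long sides had medians of 312 bp on chromosome 7 and 309.5 bp on chromosome 10, which made the differences 18 and 28.5 bp. On the other 9 chromosomes the difference of the whole sides ran from -20 to 105.5 bp, and 3 of 9 were above 0.

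On all 4 sides peaks were wider at the chromosome end than beside the gap, though the change was not even. In the first 5 Mb beside the gap the median was 292 bp on the long side and 273 bp on the short side of chromosome 7, and 257 bp on the long side and 268 bp on the short side of chromosome 10. In the last 5 Mb at the chromosome ends it was 327 bp on the long side and 308 bp on the short side of chromosome 7, and 312.5 bp on the long side and 295.5 bp on the short side of chromosome 10. On the long side of chromosome 10 the widest stretch of 6 Mb was not the outermost, as its median was 327 bp at 18 to 24 Mb from the gap and 304 bp in both stretches beyond.

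**Figure D5:**
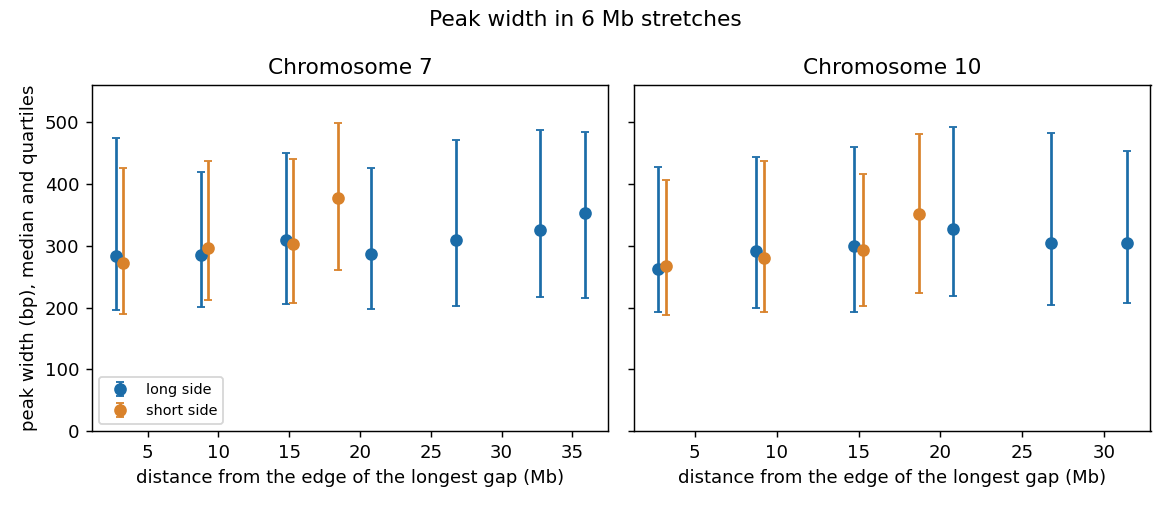
Peak width in bp (vertical axis, median as a point and quartiles as bars over the peaks of a stretch) in stretches of 6 Mb from the edge of the longest gap (horizontal axis, Mb; the outermost stretch of each side is shorter), with the long side in blue and the short side in orange, for chromosome 7 (left) and chromosome 10 (right). Medians in the stretch next to the gap are 284 and 272 bp on chromosome 7 and 262 and 268 bp on chromosome 10 (long and short side), and quartiles of all stretches overlap.

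Very wide peaks were not scarce near the gap. Peaks of 1000 bp or more made up 3.75% of those within 5 Mb of the gap on the long side of chromosome 7, against 1.86% in its middle part and 2.99% in the last 5 Mb. On its short side the shares were 4.28% beside the gap, 1.30% in the middle part and 2.00% at the end. On chromosome 10 they were 2.87%, 2.31% and 2.28% on the long side and 3.10%, 1.82% and 0.877% on the short side, in the same order. On all 4 sides the part beside the gap thus had both the highest share of wide peaks and the lowest median width of the 3 parts. These parts held 453 and 304 peaks on the long and short sides of chromosome 7, and 487 and 452 on those of chromosome 10. The shares beside the gap therefore rest on few wide peaks. On the short side of chromosome 7, 6 of them lay within 50 kb of the widest peak of the chromosome. The order of the shares was not tested.

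The widest peak of chromosome 7, of 3100 bp, lay at 40013596 to 40016695 on the short side, 2.76 Mb from the edge of the gap. The second, of 2370 bp (40024072 to 40026441), stood beside it, and 3 of the 6 peaks over 2000 bp on the chromosome fell within 50 kb of the widest. That neighbourhood held 20 peaks, 6 of them 1000 bp or wider, and stood between the spans of 145 and 135 kb named above. The third, of 2352 bp (35212787 to 35215138), was on the long side, 1.55 Mb from the middle of the gap. On chromosome 10 the widest peaks, of 2127 bp (36702956 to 36705082) and 2061 bp (34574077 to 34576137), were far out on the long side. The third, of 1812 bp (21240336 to 21242147), lay on the same side 1.87 Mb from the middle of the gap.

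Neighbouring peaks were closer together on the long side. The median gap was 5.54 kb on the long side and 6.39 kb on the short side of chromosome 7, and 5.62 kb on the long side and 6.05 kb on the short side of chromosome 10. Wide gaps were also less frequent there. Distances of 20 kb or more made up 8.56% on the long side and 13.1% on the short side of chromosome 7, and 9.62% on the long side and 12.2% on the short side of chromosome 10. Short gaps, from 150 bp to below 700 bp, made up 9.02% on the long side and 8.87% on the short side of chromosome 7, and 9.18% and 7.51% on those of chromosome 10. With sides of equal length from the gap, the median gap was 6.18 kb on the long side of chromosome 7 against 6.39 kb on its short side. Chromosome 10 showed the other order, with 6.18 kb on the long side and 6.05 kb on the short side.

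The outermost peaks were close to the ends of the sequence on the side where this can be seen. The first peak of chromosome 7 lay at 13830 to 13991 on the long side, and its last, of 1493 bp, at 55637007 to 55638499 on the short side. The first peak of chromosome 10 lay at 14897 to 15565 on the short side, and its last, of 357 bp, at 53104527 to 53104883 on the long side. The length of the sequence after the last peak is not given in the sources used here.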

How the data were processed

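The deposited list was the only file used. Each consensus peak of the series has a chromosome, a start and an end in base pairs, and 0 columns belong to a library. How the authors made it and the genome build are not stated in the labels. Per the submitters' processing notes, the software named, without roles, was MACS3 3.0.3, Bowtie2 5.5.4, fastp 1.0.1, bedtools 2.28.0, SAMtools 1.22.1, deepTools 3.5.6, edgeR 4.0, featureCounts 2.1.1 and R 4.4.3. These versions are printed as given, and that of Bowtie2 may be wrong. The peak threshold, the treatment of multiply mapped reads and the joining of peaks over libraries could each change the widths and the spans without peaks, and their part was not tested. Depth is unknown, so nothing that needs it was computed.

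Starts were converted to positions counted from 1, and peaks were placed in 1 Mb bins by their centre. Calculations ran in Python 3.11.15 (SciPy 1.17.1, numpy 2.4.6, pandas 2.3.3, matplotlib 3.10.9) and were tested on simulated lists with a planted gap. No test was made, because the peaks of 1 list are not replicates and the split came from their positions. The members, limits and measures were chosen with earlier results of these data known. Named were the gap and its edge peaks, spans of 100 kb or more (the 8 longest where there were more than 15), those nearest the limit, the 3 widest peaks of each chromosome, the widest of each sparse region, extreme bins, and the first and last peaks. Islands and bordering peaks were chosen after the values were seen. Genes of the VC1973A assembly were not joined to the peaks, since 5 peaks of chromosome 7 and 3614 of chromosome 10 lay past its last gene there, so no gene or sequence is named.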

Additional observations from a re-analysis of the deposited data

How the results depend on the processing

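Of 130 values under an alternative, 94 stayed within 95% binomial limits of the reported value (counts within 1.5 times, the position within the gap), and 36 moved. The limits treat peaks as independent, which clustered peaks are not, so they are too narrow. Some of the 94 could not move. The cuts to equal length left the short side unchanged. A split at the middle of the sparsest 1 Mb left the same peaks on each side. Removing the sparse region took no peak from the long side of chromosome 7. No test was involved. Values of single sides have no direction, so a turn in the order of the sides is named below. The density ratio of the long over the short side stayed above 1 under all alternatives tried. On chromosome 7 (1.31) it was 1.22 with the split at the second-longest gap, 1.21 without the length of long spans, 1.21 with the long side cut to equal length from the gap and 1.41 with it cut from the chromosome end. On chromosome 10 (1.16) it was 1.04 at the second-longest gap, 1.23 for bases under peaks, 1.05 cut from the gap and 1.26 cut from the end. Without the sparse region the ratio was 1.25 on chromosome 7 and 1.10 on chromosome 10.

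Without the narrowest 25% of peaks, median widths on the long and short sides were 362 and 348 bp on chromosome 7 and 368 and 345 bp on chromosome 10, and median gaps were 7.22 and 7.91 kb and 7.44 and 8.97 kb, as fewer peaks remain. The cut from the gap gave the long side 292 bp and 6.18 kb on chromosome 7 and 286 bp and 6.18 kb on chromosome 10, which turned the order of widths on chromosome 7 (294 bp on the short side) and of gaps on chromosome 10 (6.05 kb on the short side). The cut from the end gave 312 bp, 5.10 kb and 0 long spans on chromosome 7 and 309.5 bp, 5.30 kb and 0 long spans on chromosome 10. With a limit of 50 kb, spans numbered 24 on the long side and 38 on the short side of chromosome 7, and 24 and 25 on those of chromosome 10. With 200 kb they numbered 2 and 4 on chromosome 7, and 4 and 4 on chromosome 10. At the second-longest gap chromosome 7 had 7 spans on the long side and 7 on the short side, or 1.86 and 3.97 per 10 Mb. Chromosome 10 had 13 and 4 there, so that its long side had more per 10 Mb (3.68 against 2.33). It had more also in the cut from the gap (4.76 against 4.23). Without the sparse region chromosome 10 had 6 on the long side and 4 on the short side, or 1.86 and 2.37 per 10 Mb, so the order of the whole sides held. The cuts to equal length and the removal of the sparse region were chosen after seeing the data. No paired analysis was possible because positions were given once for all libraries, and likewise no replicate could be left out. Depth is unknown, so low coverage and closed chromatin cannot be told apart in a span without peaks.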
